A study of Mus musculus with 6 samples.

Results

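The genes described here are the protein components of the cytosolic ribosome. They were taken from a table of 53465 mouse genes as all protein-coding genes whose symbol begins with Rpl, Rps or Rplp followed by a digit, leaving out the Rps6k kinases, which gave 94 genes. Of these, 76 are canonical ribosomal proteins (46 of the large 60S subunit and 30 of the small 40S subunit), 7 are paralogs, 10 are protein-coding retrocopies, 9 named as pseudogenes and 1 named Rps27rt, and 1 is Rps19bp1, which encodes a protein that binds Rps19 and is not part of the ribosome. The symbol rule does not reach some ribosomal proteins, among them Rpsa, Rack1 and Fau, which are given separately.

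A ribosome holds 1 copy of nearly every ribosomal protein, so cells make these proteins in balanced amounts. Their mRNAs begin with a C and a run of pyrimidines (the TOP motif), which puts their translation under the control of mTOR and Larp1, and Myc is known to raise their transcription. When assembly is disturbed, free Rpl5, Rpl11 and several other members bind the ubiquitin ligase Mdm2 and stabilise p53. Neurons are rich in ribosomes, and the arrest of protein synthesis is a known early event of cerebral ischemia.

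The tissue was right hippocampus from male mice of the strain C57BL/6J. In the tMCAO group (transient middle cerebral artery occlusion, 3 libraries) a silicone-coated filament closed the artery for 50 min and was then withdrawn, and the other group is labelled Sham (3 libraries). Mice of both groups were anesthetised and flushed with cold saline through the heart, and RNA was selected with oligo-dT beads. The sources used here do not give the interval from occlusion to collection or what the Sham operation included, and no label ties each library to its own animal, so the p-values reflect how far these particular samples spread.

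The reads assigned to genes numbered 58392873 to 66722613 in the tMCAO libraries and 39355480 to 46666418 in the Sham libraries. Depth thus went with the group, and the 2 cannot be told apart. The libraries also differed in tissue composition, in a way that the groups do not explain. The summed level of 8 striatal neuron markers was 105, 71.8 and 511 FPKM (fragments or reads scaled by exon length and library depth) in tMCAO 1, 2 and 3, against 119, 595 and 142 FPKM in Sham 1, 2 and 3. The summed level of 8 choroid plexus markers was 590, 352 and 9.31 FPKM in tMCAO and 653, 24.99 and 730 FPKM in Sham. Of 7 neuronal genes that served to check the tissue, Prox1, a marker of dentate granule cells, had 6.08, 5.82 and 1.75 FPKM in tMCAO, against 6.21, 2.09 and 6.43 FPKM in Sham. tMCAO 3 and Sham 2 thus stood apart from the other 4 libraries in the same direction, with more striatal and less dentate and choroid plexus RNA, and the main counts below are also given without them. The 5 red blood cell markers summed to 341, 2.76 and 3.48 FPKM in tMCAO, against 10.9, 14.5 and 6.93 FPKM in Sham. No listed marker gene was at 0 in all libraries.

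Ribosomal protein mRNAs were higher after tMCAO across both subunits. Of the 94 genes, 85 passed the filter of a mean of at least 0.5 FPKM over the 6 libraries and were tested, and 1 of these, Rpl36a-ps1, passed it only through the tMCAO libraries. By limma on log2(FPKM + 1), with adjustment over all 17561 tested genes, 39 of the 85 rose (adjusted p below 0.05), 0 fell and 46 did not pass. The same call was made for 8.93% of all tested genes. The rises comprised 22 of 45 tested 60S proteins, 15 of 30 tested 40S proteins, 2 of 3 paralogs and 0 of 6 retrocopies. In bulk tissue, fewer cells of a type and less RNA per cell cannot be told apart, and the same holds for more of either.

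The changes were mostly moderate in size and upward. The median log2 fold change over the 85 genes was 0.47, with an SD of 0.23 between genes and a range of -0.17 to 1.21, while the median over all tested genes was 0.00. It was 0.47 for the 60S proteins and 0.52 for the 40S proteins. The fold change was positive for 82 genes and negative for 3. All 3 tMCAO libraries lay above all 3 Sham libraries for 67 of the 85 genes, which was the case for 23.1% of all tested genes. These 67 include 28 of the 46 genes that did not pass the test.

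The share of sequencing spent on these genes showed the same difference. The 94 genes took 1.15, 1.05 and 0.820% of the assigned reads in the tMCAO libraries, against 0.762, 0.722 and 0.715% in the Sham libraries. That is 1.01 ± 0.168% in tMCAO and 0.733 ± 0.0256% in Sham (SD, n = 3 each), and the widest 95% Wilson interval of a single share reached 0.00273 percentage points to either side, which covers counting error only. The median canonical gene stood at 63.8 ± 9.64 FPKM in tMCAO and 48.5 ± 1.44 FPKM in Sham. The balance between the subunits was the same within the spread of the libraries, since the summed FPKM of the 60S genes over that of the 40S genes was 1.46 ± 0.0163 in tMCAO and 1.48 ± 0.0225 in Sham.

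**Figure D1:**
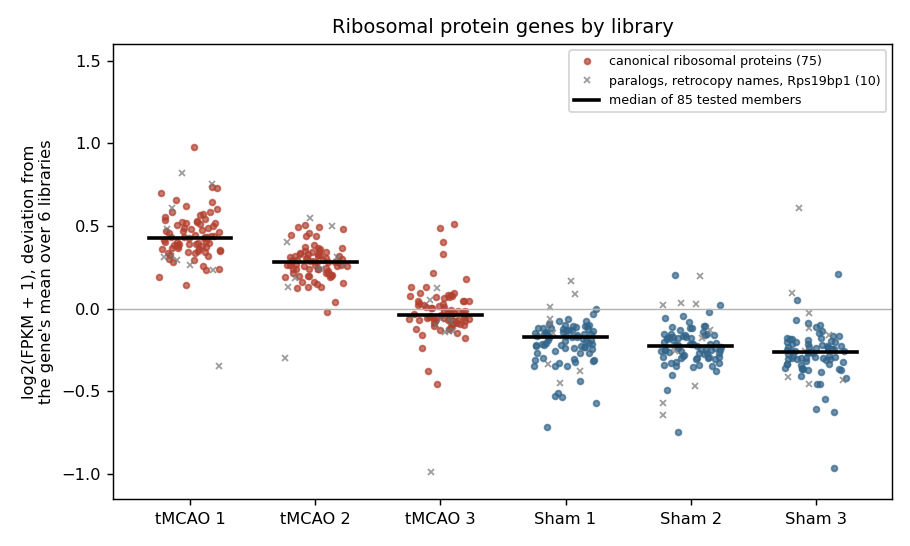
Deviation of each tested gene's log2(FPKM + 1) from its own mean over the 6 libraries, 1 point per gene and library; red circles are canonical genes in tMCAO, blue circles canonical genes in Sham, grey crosses the other members, and black lines the median of the 85 genes. The medians are 0.43, 0.28 and -0.04 in tMCAO 1, 2 and 3 and -0.17, -0.22 and -0.26 in Sham 1, 2 and 3.

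The size of the rise differed between the tMCAO libraries, as the plot of deviations by library shows. The median deviation was 0.43 in tMCAO 1, 0.28 in tMCAO 2 and -0.04 in tMCAO 3, against -0.17, -0.22 and -0.26 in Sham 1, 2 and 3. tMCAO 1 was the highest of the 6 libraries for 80 of the 85 genes, against 25.7% of all tested genes. For 63 of the 85, tMCAO 1 stood above tMCAO 2, tMCAO 2 above tMCAO 3, and tMCAO 3 above every Sham library, an order that 7.44% of all tested genes showed. In tMCAO 3, 67 genes lay above all Sham libraries, 14 within the Sham range and 4 below it. Set against Sham 2, the Sham library most like it in striatal and choroid plexus markers, tMCAO 3 was higher for 73 of the 85 genes, with a median difference of 0.19 on the log2 scale, while 51.0% of all tested genes were higher in it, with a median difference of 0.01. This sets 1 library against 1, and the 85 genes share both. The SD of the member median between replicates was 0.17, so a difference of this size is near the spread of single libraries. The summed level of 6 neutrophil markers was also highest in tMCAO 1, at 31.4, 3.66 and 1.74 FPKM in tMCAO and 0.0787, 0.307 and 0.448 FPKM in Sham. The sum came nearly all from some of the markers, while the others stayed at 0.11 FPKM or less in every library. The part of neutrophils and of blood in the ribosomal protein levels was not tested.

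The number of calls depended on which libraries were used, the direction did not. Without tMCAO 1, 2 or 3, 18, 12 and 76 of the 85 genes rose, beside 4.75, 6.69 and 12.4% of all tested genes. Without Sham 1, 2 or 3, only 1 (Rpl39), 4 (Rpl39, Rps14, Rps27 and Rps29) and 2 (Rpl17 and Rpl39) genes rose, beside 0.467, 1.36 and 0.33% of all tested genes, and an unadjusted p below 0.05 was reached by 63, 59 and 50 of the 85. With both tMCAO 3 and Sham 2 left out, an alternative chosen after seeing the data, 72 of the 85 rose with a median of 0.57, beside 6.99% of all tested genes, and all 39 genes called with 6 libraries were among them. With weights estimated for each library, 74 rose, beside 15.3% of all tested genes. After rescaling every library to the same total FPKM, 26 rose with a median of 0.40, beside 5.97% of all tested genes. That rescaling also changed the balance of calls over all genes, which was 1569 higher among 2847 in the fit without rescaling and 1048 higher among 2632 with it. None of the fits called a ribosomal protein gene lower.

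In the authors' deposited table, from a test that the sources used here do not name, 57 of the 89 members it lists were higher in tMCAO at an adjusted p below 0.05 and 0 were lower, against 10.8% higher among all its genes. All 39 genes called by limma were among those 57.

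**Figure D2:**
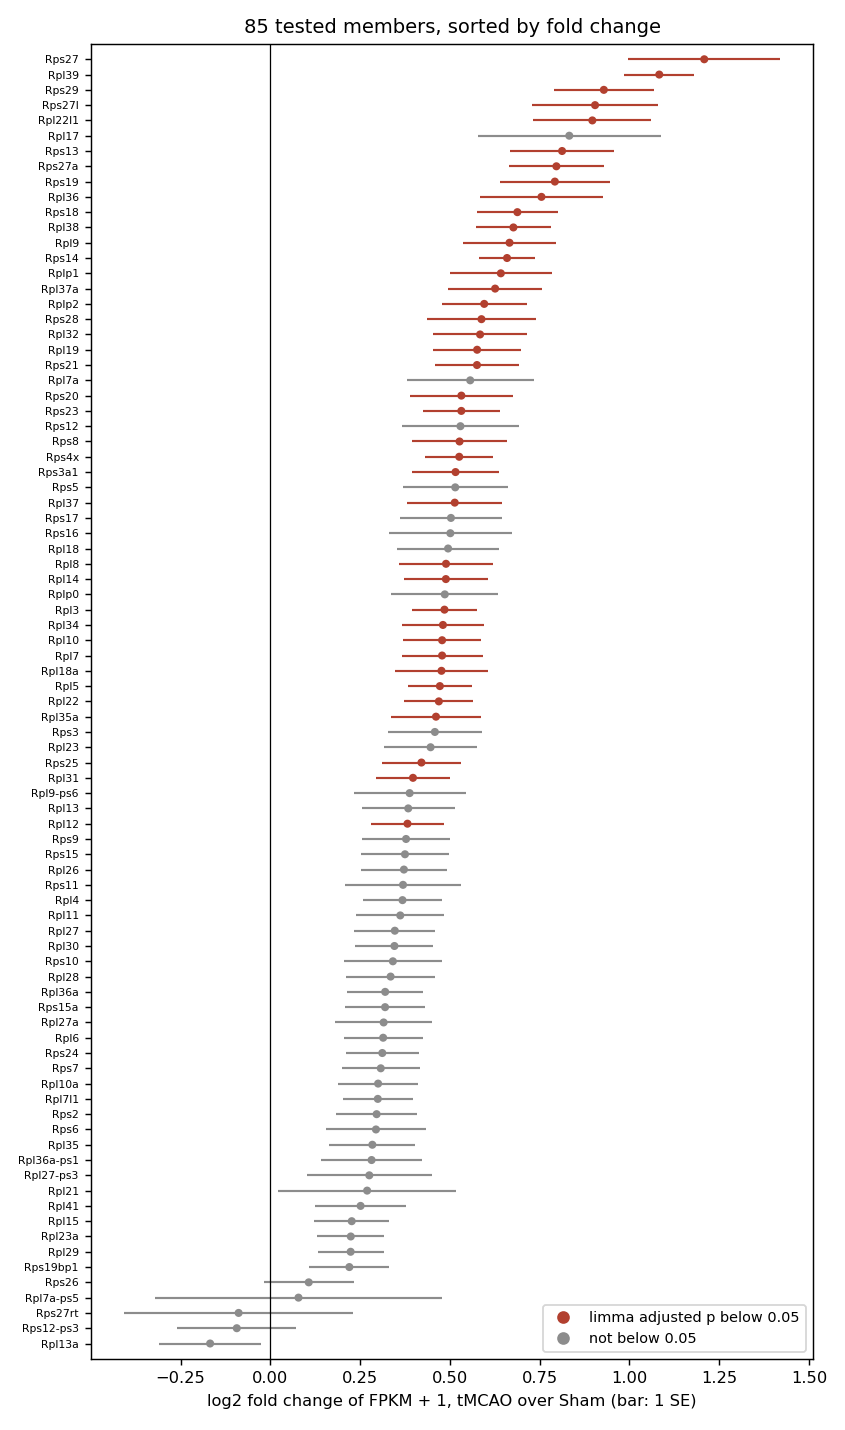
The log2 fold change of FPKM + 1, tMCAO over Sham, for the 85 tested genes, sorted, with bars of 1 SE; red marks genes with a limma adjusted p below 0.05. Nearly all points lie right of 0, from Rps27 at 1.21 down to Rpl13a at -0.17.

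Rpl39, a small 60S protein that lines the tunnel through which the growing chain leaves the ribosome, had the smallest adjusted p of the set. It had 27.6, 23.4 and 21.9 FPKM in the tMCAO libraries, against 11.1, 11.3 and 10.2 FPKM in the Sham libraries. The groups were far apart and the tMCAO libraries close to each other, tMCAO 3 included. The log2 fold change was 1.08 (SE 0.10, adjusted p = 0.0053), and an exact two-sided permutation test had p = 0.10, the smallest that 3 libraries against 3 allow. Rpl39 (chrX:37082520-37085402, minus strand, mm10) was the 1 member called in every fit, with log2 fold changes between 0.99 and 1.18.

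The 40S proteins with the strongest calls belong to different places of the subunit. Rps14, a platform protein whose loss in humans underlies the anemia of the 5q- syndrome, had 158, 148 and 136 FPKM in tMCAO, against 93.8, 91.2 and 93.0 FPKM in Sham (log2 fold change 0.66, SE 0.08, adjusted p = 0.0099). Its Sham libraries were nearly identical, and every tMCAO library was well above them. Rps29, a zinc-binding protein of the subunit's head, had 142, 119 and 96.3 FPKM in tMCAO, against 58.4, 64.0 and 61.7 FPKM in Sham (0.93, SE 0.14, adjusted p = 0.014). Rps18, another protein of the head, had 53.9, 51.5 and 40.3 FPKM in tMCAO, against 29.8, 29.6 and 29.1 FPKM in Sham (0.69, adjusted p = 0.016). In these genes too the groups did not overlap, and tMCAO 3 was the lowest tMCAO library. Rps13, a protein of the subunit's body, had 31.5, 27.3 and 21.7 FPKM in tMCAO, against 13.0, 16.6 and 14.7 FPKM in Sham (0.81, SE 0.15, adjusted p = 0.019). Rps27a, made as a fusion with ubiquitin and so also a source of free ubiquitin, had 44.1, 40.8 and 30.7 FPKM in tMCAO, against 20.9, 22.4 and 21.2 FPKM in Sham (0.80, SE 0.13, adjusted p = 0.017).

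On the 60S side, Rpl38, whose loss in the Tail-short mouse disturbs the translation of Hox mRNAs, came next to Rpl39. It had 117, 106 and 89.96 FPKM in tMCAO, against 64.3, 66.2 and 63.3 FPKM in Sham (0.68, SE 0.10, adjusted p = 0.015). The groups did not overlap.

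The P stalk, the flexible arm of the 60S subunit that recruits the GTPases of translation, is built from Rplp0, Rplp1 and Rplp2. Of the 3, 2 rose, beside 8.93% of all tested genes. Rplp1 had 488, 410 and 335 FPKM in tMCAO, against 262, 264 and 253 FPKM in Sham (0.64, adjusted p = 0.030). Rplp2 had 33.5, 29.1 and 23.9 FPKM in tMCAO, against 19.0, 18.7 and 18.04 FPKM in Sham (0.60, adjusted p = 0.024). Rplp0, which anchors the other two, had 163, 149 and 109 FPKM in tMCAO, against 102, 95.02 and 98.1 FPKM in Sham, and did not pass (0.49, adjusted p = 0.066). All 3 genes had their highest level in tMCAO 1, as did 80 of the 85 tested members and 25.7% of all tested genes. In all 3 every tMCAO library lay above every Sham library. That was the case for 67 of the 85 and 23.1% of all tested genes, so neither trait is particular to the P stalk.

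Of 7 proteins at the rim and wall of the exit tunnel, 3 rose, beside 8.93% of all tested genes. Besides Rpl39, the 3 were Rpl19, with 108, 98.6 and 78.9 FPKM in tMCAO and 67.3, 61.3 and 60.6 FPKM in Sham (0.58, adjusted p = 0.028), and Rpl31, with 103, 86.2 and 83.2 FPKM in tMCAO and 66.3, 74.3 and 65.1 FPKM in Sham (0.40, adjusted p = 0.045). Overlap with other annotated genes covers 11.4% of the exon sequence of Rpl19 and 25.3% of that of Rpl31. Rpl31 lost its call in several of the other fits. The remaining 4 did not pass: Rpl17 (0.83, adjusted p = 0.066), Rpl26 (0.37, adjusted p = 0.075), Rpl35 (0.28, adjusted p = 0.14) and Rpl23a (0.22, adjusted p = 0.14). Overlap with other annotated genes covers 66.2% and 62.3% of the exon sequence of Rpl35 and Rpl23a. It is led by Wdr38 and Tlcd1, both on the opposite strand. With no strand setting given, it is not known whether reads at these loci were told apart. Rpl17 is a case where 1 library decides the call. It had 100, 79.8 and 96.5 FPKM in tMCAO, against 41.4, 40.5 and 79.3 FPKM in Sham. Sham 3 was thus near the tMCAO level. Of the 50-base words of its transcripts, 44.7% occur in other genes, and without it the log2 fold change was 1.15 (adjusted p = 0.031).

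Among 7 members known to bind Mdm2, 3 rose, beside 8.93% of all tested genes. Rpl5, which binds Mdm2 together with Rpl11 and the 5S rRNA, had 66.6, 61.2 and 53.4 FPKM in tMCAO, against 43.5, 43.0 and 42.8 FPKM in Sham (0.47, SE 0.09, adjusted p = 0.022). Overlap with other annotated genes, led by Fam69a on the opposite strand, covers 26.7% of its exon sequence. Rps27 and its paralog Rps27l, described below, also rose. Rpl11, the partner of Rpl5, had 51.9, 46.4 and 36.8 FPKM in tMCAO, against 35.2, 34.5 and 33.7 FPKM in Sham, and did not pass (0.36, adjusted p = 0.085). The groups of Rpl11 did not overlap either, but tMCAO 3 was close to Sham. Rpl23, Rpl26 and Rps7 did not pass, with log2 fold changes of 0.45, 0.37 and 0.31 and adjusted p of 0.057, 0.075 and 0.092. Mdm2 itself rose, with 11.6, 11.6 and 10.7 FPKM in tMCAO and 7.78, 7.63 and 7.70 FPKM in Sham (0.50, adjusted p = 0.011), and so did Trp53, the gene of p53, at 7.87 ± 0.413 FPKM in tMCAO and 6.20 ± 0.381 FPKM in Sham (0.30, adjusted p = 0.042).

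The 5 members with the highest mean level were Rps15, Rplp1, Rpl8, Rps3a1 and Rpl4. Rps15, a protein of the 40S head, averaged 404 ± 57.1 FPKM in tMCAO and 309 ± 16.9 FPKM in Sham and did not pass (0.38, adjusted p = 0.078). Rpl8, which lies near the peptidyl transferase centre, averaged 284 ± 46.8 FPKM in tMCAO and 200 ± 6.49 FPKM in Sham (0.49, adjusted p = 0.047). Rps3a1, at the mRNA exit of the 40S subunit, averaged 280 ± 42.7 FPKM in tMCAO and 194 ± 2.56 FPKM in Sham (0.52, adjusted p = 0.034). Rpl4, which narrows the exit tunnel, averaged 224 ± 30.1 FPKM in tMCAO and 172 ± 2.08 FPKM in Sham and did not pass (0.37, adjusted p = 0.061). In each of these genes the SD was larger among the tMCAO libraries than among the Sham libraries. Over the 75 tested canonical genes the fold change had no relation to the mean level (Spearman rho -0.03 across genes, which share their libraries).

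The 5 lowest fold changes include 2 canonical genes. Rpl13a, which in human monocytes also leaves the ribosome to repress inflammatory mRNAs, had 5.55, 4.85 and 3.55 FPKM in tMCAO, against 4.91, 5.81 and 5.15 FPKM in Sham (-0.17, adjusted p = 0.43). Its level was far under that of the median canonical gene. Overlap with other annotated genes, led by the protein-coding gene Gm45713, covers 35.4% of its exon sequence. Gm45713 was listed at 0 in all libraries. Rps26, which lines the mRNA exit channel of the 40S subunit, had 66.2, 62.8 and 47.4 FPKM in tMCAO, against 54.8, 54.3 and 52.8 FPKM in Sham (0.11, adjusted p = 0.57). tMCAO 1 and 2 were above Sham and tMCAO 3 below it. The other genes at the low end were the retrocopies Rps12-ps3 (-0.09, adjusted p = 0.72), Rps27rt (-0.09, adjusted p = 0.86) and Rpl7a-ps5 (0.08, adjusted p = 0.905), and Rpl7a-ps5 had 1.05 FPKM in tMCAO 3 against 2.61 FPKM or more in every other library.

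Rps27 showed the largest fold change of the set, and its reads cannot be separated cleanly from those of a second locus. Rps27, a zinc finger protein of the 40S subunit, lies at chr3:90212522-90213651 on the minus strand (mm10). Its retrocopy Rps27rt lies at chr9:114982366-114982739, minus strand, and its paralog Rps27l, a known p53 target, at chr9:66946086-66949516, plus strand. The coding sequences of Rps27 and Rps27l from the GENCODE M21 transcripts are shown because they show which reads can be told apart. Capitals in Rps27l mark the bases that differ from Rps27.
Rps27: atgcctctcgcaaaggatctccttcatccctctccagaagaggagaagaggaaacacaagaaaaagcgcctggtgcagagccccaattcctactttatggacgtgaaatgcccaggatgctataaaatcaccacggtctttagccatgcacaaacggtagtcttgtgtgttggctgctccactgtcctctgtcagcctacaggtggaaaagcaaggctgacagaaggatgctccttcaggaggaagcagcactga
Rps27l: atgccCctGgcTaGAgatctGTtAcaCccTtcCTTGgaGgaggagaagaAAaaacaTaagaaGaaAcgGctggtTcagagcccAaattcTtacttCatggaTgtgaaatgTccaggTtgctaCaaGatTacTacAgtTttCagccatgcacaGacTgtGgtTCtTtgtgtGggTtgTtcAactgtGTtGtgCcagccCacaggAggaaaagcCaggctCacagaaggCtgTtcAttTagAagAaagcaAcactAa
The 255 bases of Rps27rt differ from those of Rps27 at 0 positions, and 91.1% of the 50-base words of the Rps27rt transcript also occur in Rps27. Rps27l differs from Rps27 at 61 positions (76.1% identity) and has no identical run longer than 11 bases, so reads from its coding sequence can be told from those of Rps27.

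The split of reads between the identical copies varied from library to library. Rps27 had 67.3, 48.4 and 42.7 FPKM in tMCAO, against 23.1, 26.8 and 16.9 FPKM in Sham (log2 fold change 1.21, SE 0.21, adjusted p = 0.018). Rps27rt had 31.3, 50.0 and 37.3 FPKM in tMCAO, against 45.1, 25.3 and 61.6 FPKM in Sham. Of the reads given to either gene, Rps27rt held 14.3, 27.1 and 23.9% in tMCAO and 41.2, 25.3 and 56.7% in Sham. Added up, the pair had 80.2, 69.3 and 55.6 RPM (reads scaled to the assigned total of the library) in tMCAO, against 41.0, 36.2 and 39.9 RPM in Sham. The sum was 1.75-fold higher in tMCAO (68.4 ± 12.3 against 39.0 ± 2.52, SD, n = 3 each), the groups did not overlap, and the exact two-sided permutation test gave p = 0.10, its smallest possible value. Rps27l had 13.1, 11.2 and 7.66 FPKM in tMCAO, against 5.44, 4.63 and 5.27 FPKM in Sham (0.90, SE 0.18, adjusted p = 0.023).

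**Figure D3:**
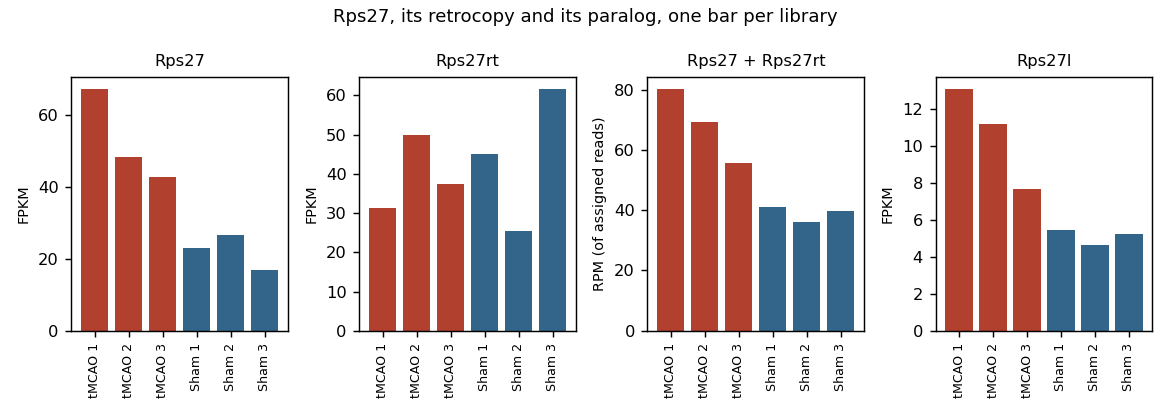
Bars give, for each library, the FPKM of Rps27, of Rps27rt and of Rps27l, and the RPM of Rps27 and Rps27rt added together, with tMCAO libraries in red and Sham libraries in blue. The sum lies at 55.6 to 80.2 in tMCAO and 36.2 to 41.0 in Sham, while Rps27rt alone overlaps between the groups.

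Of the 7 paralogs, 3 were tested and 2 of them rose, Rps27l and Rpl22l1, beside 8.93% of all tested genes. Rpl22l1, which Rpl22 is known to repress in mice, had 17.9, 13.2 and 10.7 FPKM in tMCAO, against 6.87, 6.76 and 6.97 FPKM in Sham (0.90, SE 0.16, adjusted p = 0.020). Its parent Rpl22 had 28.7, 26.3 and 22.4 FPKM in tMCAO, against 17.8, 18.7 and 18.3 FPKM in Sham (0.47, adjusted p = 0.025). Rpl22l1 therefore stood at 62.4, 50.2 and 47.7% of the Rpl22 level per length in tMCAO, against 38.6, 36.1 and 38.1% in Sham, groups that do not overlap (exact permutation p = 0.10, the smallest possible). Rps27l stood at 20.2 ± 2.69% of the Rps27 level in tMCAO and 24.0 ± 6.99% in Sham, which overlap (exact permutation p = 0.60). The Rps27 level in that ratio depends on how reads were split with Rps27rt, and the direction turned when the pair was used instead: Rps27l reads came to 13.0, 13.2 and 10.7% of the summed Rps27 and Rps27rt reads in tMCAO, against 10.8, 10.1 and 10.6% in Sham (exact permutation p = 0.20). By either measure the groups overlap. Rpl7l1 did not pass (0.30, adjusted p = 0.077). It stood at 17.0, 19.3 and 18.4% of Rpl7 in tMCAO, against 19.4, 20.8 and 20.9% in Sham, groups that do not overlap (exact permutation p = 0.10). Rpl7 itself rose (0.48, adjusted p = 0.035).

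The other 4 paralogs were under the filter. Rpl36al had 62 reads in the 3 tMCAO libraries and 11 in the 3 Sham libraries. Overlap with other annotated genes, led by Gm49383, covers 24.5% of its exon sequence. Rpl3l, known from heart and skeletal muscle, had 28, 19 and 29 reads in tMCAO and 11, 26 and 18 reads in Sham. The testis paralogs were close to absent, with 1 read of Rpl39l in tMCAO and 5 in Sham, and 0 reads of Rpl10l in every library. Their parents Rpl3 (0.49, adjusted p = 0.021), Rpl10 (0.48, adjusted p = 0.032) and Rpl39 rose, while Rpl36a did not pass (0.32, adjusted p = 0.079).

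The remaining members under the filter were 4 retrocopies and 1 canonical gene. Rpl10-ps3, Rpl9-ps1, Rpl13a-ps1 and Rpl36-ps4 had at most 0.33 FPKM in any library, and Rpl36-ps4 was at 0 throughout. The canonical gene was Rpl24, a 60S protein at the interface with the 40S subunit, which had 0.526, 0.398 and 0.535 FPKM in tMCAO and 0.418, 0.564 and 0.296 FPKM in Sham, or 14 to 35 reads per library. Overlap with other annotated genes, led by Gm28037, covers 47.0% of its exon sequence. Gm28037 was listed at 0 in all libraries, and the part of the overlap in the low Rpl24 level was not tested. Rps19bp1 did not pass (0.22, adjusted p = 0.20).

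Most of these genes share stretches of sequence with other genes. Of the 94 members, 89 share at least 1 word of 50 bases with another gene, all of them with annotated pseudogenes, and the median member shares 23.6% of its words. The table also lists 277 pseudogenes named after ribosomal proteins, of which 68 were tested. Of these 68, 12 rose and 0 fell, beside 8.93 and 7.28% of all tested genes, and their median log2 fold change was 0.27. The summed level of the 277 was 826, 729 and 540 FPKM in tMCAO, against 561, 544 and 476 FPKM in Sham, and tMCAO 3 lay within the Sham range. Over the 75 tested canonical genes, the fold change had no relation to the share of words found elsewhere (Spearman rho -0.03 across genes).

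Promoters were searched for letters of the pyrimidine run. RefSeq promoters (GRCm38.p6, the same assembly as mm10) were at hand for 65 of the member genes, 77 promoters in all. The letters CTTTC, all pyrimidines, were counted on the gene's strand at any place within 30 bases of the start. A match there need not lie in the pyrimidine run at the start itself. The letters occurred in 23 of 77 promoters (29.9%), against 7.93% of all 32851 promoters. Read on the opposite strand they occurred in 8 of 77 (10.4%), against 7.42% of all. The letters CCGGAAG, a core bound by ETS factors such as Gabpa, occurred on either strand of the 300-base promoter in 26 of 77 (33.8%), against 8.86% of all. Matches to the motifs can share at most 1 base, and a match of letters is a description and not a bound site. The 60 bases around the start, from 30 before it, are shown for 5 of the members that rose and hold CTTTC, with CTTTC in capitals.
Rpl38, chr11:114668550-114668609, plus strand: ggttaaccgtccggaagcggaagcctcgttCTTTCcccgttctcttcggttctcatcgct
Rps27, chr3:90213619-90213678, minus strand: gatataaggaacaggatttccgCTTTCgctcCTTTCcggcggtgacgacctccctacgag
Rpl5, chr5:107900498-107900557, plus strand: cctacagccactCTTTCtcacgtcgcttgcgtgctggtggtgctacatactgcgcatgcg
Rplp2, chr7:141447621-141447680, plus strand: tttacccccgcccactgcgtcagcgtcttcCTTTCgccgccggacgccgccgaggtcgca
Rpl12, chr2:32961682-32961741, plus strand: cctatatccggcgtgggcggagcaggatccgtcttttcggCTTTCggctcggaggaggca
The annotated starts of Rpl38 and Rplp2 fall on the first base of the motif. In Rpl5 the motif lies before the annotated start, and in Rpl12 it lies after the start. Rpl12, a 60S protein at the base of the P stalk, was shown for its promoter and also rose (0.38, adjusted p = 0.046).

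Ribosomal protein genes are short, and short genes as a class were slightly higher after tMCAO. The median exon length of the 75 tested canonical genes was 1770 bases. Among all tested protein-coding genes of the shortest of 10 length classes (up to 1720 bases), the median log2 fold change was 0.09 and 13.8% rose. The 33 canonical genes of that class had a median of 0.50 and 18 of them rose. In the next class (1723 to 2469 bases) the median over all genes was 0.08 with 14.3% risen, and the 18 canonical genes had a median of 0.48 with 7 risen. In the class of the longest genes the median over all genes was -0.12 and 2.77% rose. With the trend of each library on exon length removed, 35 of the 85 genes rose, beside 8.82% of all tested genes, and the median was 0.44. Within the set the fold change was weakly related to exon length (Spearman rho -0.25 over 75 genes).

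**Figure D4:**
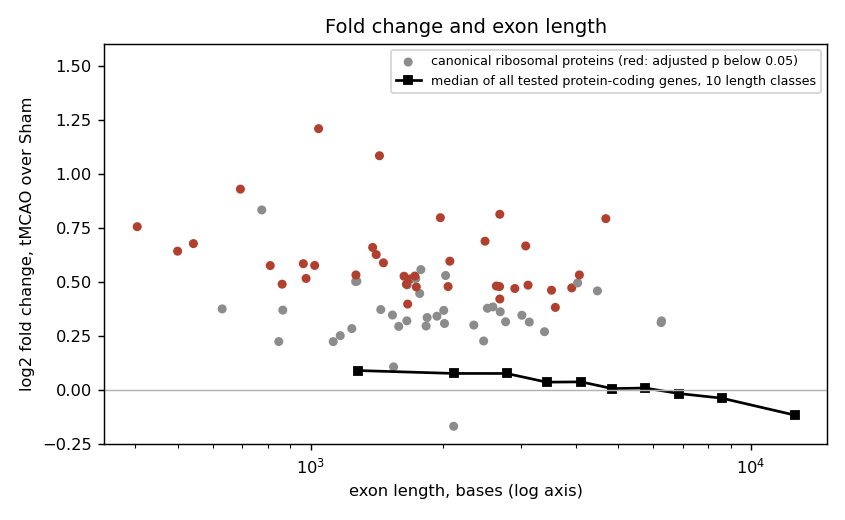
The log2 fold change of each tested canonical gene, tMCAO over Sham, against its exon length on a log axis, with red points for a limma adjusted p below 0.05; black squares are the median of all tested protein-coding genes in 10 length classes, placed at the median length of the class. The black line runs from 0.09 to -0.12, and all but 1 of the 75 points lie above 0.

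Other genes of translation were examined beside the ribosomal proteins, and no difference between the lists was tested. The share that rose among all tested genes was 8.93%. Of 20 genes with TOP mRNAs outside the symbol rule, 6 rose and 0 fell, with a median of 0.35. They include Eif3e, a subunit of the initiation factor that prepares the 40S subunit, with 14.5, 13.1 and 12.7 FPKM in tMCAO and 9.32, 8.90 and 9.37 FPKM in Sham (0.50, adjusted p = 0.014). Eif4b (0.38, adjusted p = 0.017), Eif3f (0.44, adjusted p = 0.027) and Pabpc1, the poly(A)-binding protein (0.34, adjusted p = 0.030), rose as well. Of the ribosomal proteins that the symbol rule misses, Fau rose (0.56, adjusted p = 0.033), while Rpsa (0.26, adjusted p = 0.25) and Rack1 (0.34, adjusted p = 0.080) did not pass. The elongation factors with the highest levels, Eef1a1 (761 ± 70.8 FPKM in tMCAO and 683 ± 11.4 FPKM in Sham) and Eef2 (366 ± 29.3 and 321 ± 1.39 FPKM), did not pass (0.15 and 0.18, adjusted p = 0.36 and 0.19).

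Of 28 genes of ribosome assembly and rRNA synthesis, 10 rose and 0 fell, with a median of 0.18, while 8.93% of all tested genes rose. Eif6, which keeps new 60S subunits from joining 40S subunits too early, had 18.2, 15.6 and 15.3 FPKM in tMCAO, against 9.96, 9.51 and 10.04 FPKM in Sham (0.68, adjusted p = 0.0099). Gar1, of the particles that modify rRNA (0.45, adjusted p = 0.024), Nip7, a 60S assembly factor (0.53, adjusted p = 0.025), and Nob1, the nuclease that finishes 18S rRNA (0.41, adjusted p = 0.030), also rose. The polymerase subunits Polr1a and Polr1b and the factor Ubtf, which transcribe rRNA, had log2 fold changes of 0.10, 0.02 and -0.08 and did not pass. Rrn3, another factor of rRNA transcription, did not pass either (0.24, adjusted p = 0.068). It had 19.3, 19.3 and 17.4 FPKM in tMCAO, against 16.1, 14.7 and 16.1 FPKM in Sham.

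Of 17 genes that regulate ribosomal protein expression or respond to its disturbance, 3 rose and 0 fell, with a median of 0.05. Of all tested genes, 8.93% rose and 7.28% fell. The 3 regulators that rose were Mdm2, Trp53 and Myc. Myc had 5.58, 4.20 and 3.90 FPKM in tMCAO, against 1.29, 1.27 and 1.32 FPKM in Sham (1.27, SE 0.12, adjusted p = 0.0056). Eif4ebp1, an mTOR target that restrains initiation, did not pass (0.45, adjusted p = 0.073), and neither did Mtor (-0.10, adjusted p = 0.50) or Larp1 (-0.10, adjusted p = 0.38).

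Other large complexes were described in the same way, beside the 8.93% of all tested genes that rose and the 7.28% that fell. Of 77 tested mitochondrial ribosomal proteins, 7 rose and 2 fell, with a median of 0.06, a share of rises near that of all tested genes. Of 75 nuclear genes of the respiratory chain, 18 rose and 0 fell, with a median of 0.19. Of 37 proteasome subunits, 24 rose and 0 fell, with a median of 0.37. A rise of many subunits was thus also present in the proteasome, and the difference between these sets and the cytosolic ribosome was not tested.

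Cell type markers changed beside the ribosomal proteins, and their part in the levels was not tested. Among all tested genes, 8.93% rose and 7.28% fell. Of 6 microglial markers, 4 fell and 0 rose, with sums of 54.7, 68.7 and 61.5 FPKM in tMCAO and 84.2, 97.0 and 86.7 FPKM in Sham. Of 5 astrocyte markers only Gfap rose, with 186, 168 and 99.3 FPKM in tMCAO and 59.9, 36.8 and 62.2 FPKM in Sham. The sums of the 5 were 301, 281 and 201 FPKM in tMCAO and 167, 152 and 174 FPKM in Sham. Their difference between the groups came mostly from Gfap, and tMCAO 3 was the lowest tMCAO library. Of 7 neuronal markers, 1 rose and 0 fell, with sums of 322, 352 and 433 FPKM in tMCAO and 337, 349 and 345 FPKM in Sham. The largest part of these sums was Slc17a7, with 163, 194 and 266 FPKM in tMCAO and 179, 185 and 182 FPKM in Sham. Prox1, of the same list, was lowest in tMCAO 3, so the sum does not stand for each of its genes. Of 5 endothelial markers, 1 rose and 1 fell, with sums of 32.5, 35.1 and 28.0 FPKM in tMCAO and 27.5, 28.4 and 26.3 FPKM in Sham. The 7 monocyte and macrophage markers summed to 6.46, 8.90 and 7.88 FPKM in tMCAO and 6.00, 5.28 and 4.77 FPKM in Sham, and 0 of the 2 tested passed. None of the 7 tested striatal, 8 choroid plexus or 2 tested neutrophil markers passed, and none of the red blood cell markers was in the authors' comparison.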

How the data were processed

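RNA sequencing libraries of the right hippocampus were given by the authors as FPKM per gene in a table of all genes and in a comparison table of 22647 genes, which hold the same values. Per the submitters' processing notes, reads were handled on mm10. The sources used here name no aligner, counter or strand setting. It is therefore not known whether reads of overlapping genes were told apart. The authors' deposited table also holds a log2 fold change, signed as Sham over tMCAO, and a p-value and adjusted p-value from an unnamed test. Titles tied the Sham columns to samples. Column names of the tMCAO libraries give the group alone, so tMCAO 1 to 3 are column numbers only.

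Of 30195 genes above 0 in 3 or more libraries, dividing the FPKM by the value of a single read gave whole numbers for 93.4% (tolerance 0.01). These used the exon length of GENCODE M21. For the others the shortest length that gave whole numbers was taken, so whole numbers are no check there. This holds for 14 of the 94 members. The whole numbers served as reads per gene and library. These units may be reads or pairs.

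The test was limma 3.58.1 in R 4.3.3 (lmFit, eBayes with trend, two-sided, Benjamini-Hochberg) on log2(FPKM + 1), without rescaling, for genes of the comparison table with a mean of at least 0.5 FPKM. On this scale, changes of genes with low FPKM are understated. Reads, on which voom was run as an alternative, were recovered from the FPKM. Exact permutation tests used the 20 assignments of 6 libraries. Alternatives were a pseudocount of 0.1, no filter, a filter of 2 FPKM, 3 scalings, removal of the length trend (lowess, span 0.3), eBayes without trend, library weights, the table of all genes, voom, and leaving out each library. The procedure was also run on simulated data with independent noise for each gene. Such data cannot speak for counts of genes that move together by library. Exons were compared with GENCODE M21, and coordinates are those of mm10.

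Members, lists and tests were chosen with earlier results of these data known. Genes named are the 8 members with the smallest adjusted p, the 5 with the highest level, the 5 with the lowest fold change, the P stalk, exit tunnel and Mdm2-binding members, the paralogs with their parents, members below the filter, and up to 4 genes of the lists of TOP, assembly and regulator genes. Rpl12, Rpl36a-ps1, Rpsa, Rack1, Fau, Eef1a1, Eef2, Polr1a, Polr1b, Ubtf, Rrn3, Mtor, Larp1, Prox1, Slc17a7 and Gfap were named after their values were seen. The single result of 1 listed gene is not reported here, while counts and medians include it.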

Additional observations from a re-analysis of the deposited data

How the results depend on the processing

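The direction of the set did not depend on the processing tried: the median log2 fold change stayed between 0.36 and 0.59 in all fits, and no ribosomal protein gene was called lower in any. Library weights called 4913 genes in all, 74 ribosomal protein genes and 32 of the named ones, against 2847, 39 and 21 without weights. Without tMCAO 3 and Sham 2 (chosen after seeing the data) the counts were 2121, 72 and 32. Leaving out 1 library gave 75 to 3896 genes in all, 1 to 76 ribosomal protein genes and 1 to 34 named genes, with 2 libraries in 1 of the groups. The lowest counts came without a Sham library and the highest without tMCAO 3. Of the genes named by rule, Rpl31 and Rpl8 lost their call with no filter, voom, and median ratio, quantile and equal sum scaling. Rpl7 lost it with the equal sum. The set lost more: 34 of 89 members rose with no filter, beside 1578 of all 22647 genes. By median ratio and quantile scaling and with voom, 32, 29 and 27 of 85 rose, beside 1486, 1415 and 1247 of all 17561 tested genes. Equal sum scaling gave 26. Without the eBayes trend 34 rose, beside 1534 genes in all. With the table of all genes 36 rose, beside 1515 of 17832. The sign changed only for genes that did not pass with all 6 libraries: Rpl7a-ps5 was at -0.042 with voom and between -0.21 (without tMCAO 1) and 0.59 (without tMCAO 3) when 1 library was left out, Rps12-ps3 at 0.027 without tMCAO 3 and Sham 2 and between -0.27 and 0.033 (without tMCAO 2) when 1 was left out, Rpl13a at 0.038 without tMCAO 3 and Sham 2, and Rps27rt between -0.43 and 0.19 (without Sham 3). The cause was not tested. No paired analysis was possible because the sample labels run in 1 series through both groups and repeat no number, and the numbers of the tMCAO columns are not tied to samples. Rpl24 and Rpl36al had few reads and stayed under the filter.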
